A study of Mus musculus with 31 samples.

Results

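A group of 9 genes of myelin and of the oligodendrocyte lineage were followed in the hippocampi of P301S tau transgenic mice and of non-transgenic (Ntg) controls. These were *Mbp*, *Mog*, *Mag*, *Mobp*, *Cldn11*, *Ugt8a* and *Cnp*, called the 7 myelin genes below, together with *Olig2* and *Pdgfra*. The genes were taken by name. Names paired with Ensembl identifiers in the microglial count table were used to find their rows, and all 9 were found among the 48795 genes of the hippocampal count table. All 9 passed the filter on low counts that left 16453 genes for testing.

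Hippocampi were taken from 7 Ntg mice (numbered 35, 46, 55, 61, 62, 68 and 71) and 6 P301S mice (29, 36, 43, 63, 65 and 77). Of these, 3 were female in each group. The labels put both groups at 8 to 9 months of age. P301S mice express human tau with the P301S mutation from a prion promoter, and a tangle-forming tauopathy develops in their brains. The colony was crossed with a *Cgas* deletion line, and the *Cgas* genotype of these 13 mice is not given in the sources used here. A second experiment covered primary microglia of *Cgas*+/+ and *Cgas*-/- mice given vehicle, fibrils of tau, or DNA from herring testis (HT-DNA), an agonist of the DNA sensor cGAS, with 3 libraries in each of 6 groups. The study describes them as biologically independent, and neither the labels nor that description says whether each came from a separate culture or animal, so p-values in microglia measure the spread between these libraries.

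Myelin is the multilayered membrane that oligodendrocytes wrap around axons; in the hippocampus it is densest in the fiber tracts. Oligodendrocytes arise from progenitors that carry the PDGF receptor encoded by *Pdgfra* and that divide in response to PDGF. On differentiation *Pdgfra* is shut off, while the transcription factors OLIG2, SOX10 and MYRF drive the genes for compact myelin proteins, for the axon-facing and outer membranes and for the galactolipids of the sheath. The 9 genes thus mark successive stages of a single lineage.

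The RefSeq promoter table (GRCm38.p6, 250 bases before to 50 bases after each start) held 8 of the 9 genes outside *Mbp*, whose sequence was not used. The letters CTGGCAC or CTGGTAC, variants of the site bound by MYRF, were sought on both strands. At least 1 match lay in the windows of *Mog*, *Mag* and *Cnp*, which is 3 of 8 genes, against 8.10% of the 27025 genes listed there. The 120 bases before the first annotated start of these 3 genes are shown because they carry the matches, set in capitals, which begin 83 bases (*Mog*), 9 bases (*Mag*) and 46 bases (*Cnp*) before the start. The *Mog* match lies on the opposite strand. Coordinates are GRCm38, on the minus strand for *Mog* (chr17:37023399-37023518) and *Mag* (chr7:30914923-30915042) and on the plus strand for *Cnp* (chr11:100574784-100574903).
Mog: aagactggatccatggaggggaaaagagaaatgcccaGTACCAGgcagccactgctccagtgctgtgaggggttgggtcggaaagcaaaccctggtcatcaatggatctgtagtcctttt
Mag: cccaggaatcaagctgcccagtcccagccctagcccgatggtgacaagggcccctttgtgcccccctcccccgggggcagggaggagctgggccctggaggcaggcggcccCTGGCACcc
Cnp: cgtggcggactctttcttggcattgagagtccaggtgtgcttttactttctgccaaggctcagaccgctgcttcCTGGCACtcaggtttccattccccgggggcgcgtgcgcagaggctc

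The SOX-type letters ACAAAG or ACAATG were found in *Mag*, *Mobp*, *Cnp* and *Olig2*, 4 of 8 genes, against 31.7% of all genes. The interferon-stimulated response element (ISRE) matched in 0 of the 8, against 3.99% of all genes. The letters TTCNNNGAA of the STAT-bound GAS element matched *Mag* alone, 1 of 8, against 9.55%. A match is a description of these windows only, and no factor binding was measured in these data.

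Libraries were deep, with 25953296 to 35779977 counted reads per hippocampus and 17037459 to 25174764 per microglial library. *Mapt* had 519 to 642 CPM in Ntg mice and 858 to 1125 in P301S mice. CPM are read counts scaled to the library size, which was normalized by TMM. Whether the *Mapt* count includes reads of the transgene was not tested. *Ddx3y*, a gene of the Y chromosome, had 2 to 11 counts in females and 1133 to 2383 in males. *Cgas* had 18.8 to 44.3 CPM in *Cgas*+/+ and 3.76 to 7.45 in *Cgas*-/- microglia. P301S mouse 43 stood apart from its group. Its summed level of 7 disease-associated microglial markers was 112 CPM, below the Ntg range of 124 to 158, whereas the other P301S mice had 160 to 488. Calls that change without this mouse are given with and without it. Its *Mapt* level, like that of the other P301S mice, was above every Ntg mouse.

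In P301S hippocampi the 7 myelin genes were higher on average by 0.39 to 0.59 on the log2 scale, which is 1.31 (*Ugt8a*) to 1.504 (*Cldn11*) times the Ntg level. A gene was called where edgeR's quasi-likelihood test with Benjamini-Hochberg adjustment gave under 0.05 and its level differed by more than 0.5 on the log2 scale. By this rule 0 of the 9 genes was called. Over all genes tested 1.32% were called higher and 0.0365% lower. At an unadjusted p under 0.05, 6 of the 9 genes were higher and 0 lower, against 9.79% of all genes higher and 6.09% lower. The log2 fold change was above 0 for 8 of the 9 genes and for 50.4% of all genes, and it reached the value of *Ugt8a*, the smallest of the 7 myelin genes, in 9.66% of all genes. Every P301S mouse was above every Ntg mouse for 0 of the 9 genes and for 0.438% of all genes, and below for 0 and 0.17%. *Olig2* and *Pdgfra* differed by 0.16 and -0.05. In bulk tissue, more cells of a type and more RNA per cell cannot be told apart.

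**Figure D1:**
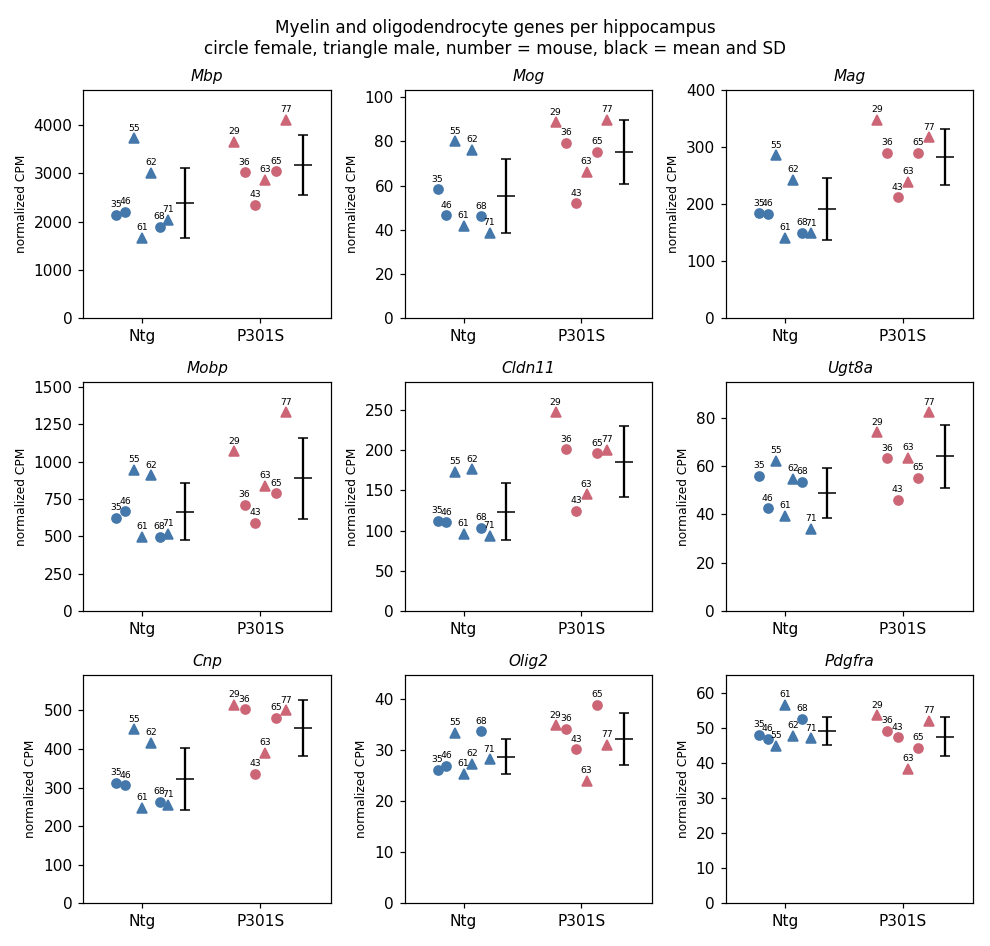
Normalized CPM (y axis, linear from 0) of the 9 genes in each hippocampus, with females as circles, males as triangles, mouse numbers beside the points, and the group mean with SD in black (7 Ntg and 6 P301S mice). Ntg mice 55 and 62 lie among the P301S mice for the 7 myelin genes, and the groups overlap for all 9 genes.

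Among the proteins of compact myelin, *Mbp* (ENSMUSG00000041607) encodes myelin basic protein, which holds the inner faces of the membrane together. In Ntg mice it had from 1671 to 3720 CPM with a median of 2138, and in P301S mice from 2350 to 4100 CPM. The P301S levels were 2350 in mouse 43, 2857 in 63, 3012 in 36, 3033 in 65, 3644 in 29 and 4100 in 77. Ntg mice 55 (3720 CPM) and 62 (3009 CPM) reached into this range, the other 5 Ntg mice lay below it, and only P301S mouse 77 was above every Ntg mouse. *Mbp* thus had a log2 fold change of 0.41 ± 0.18 (SE; 7 and 6 mice; adjusted p = 0.282 by edgeR; exact two-sided permutation p = 0.0478).

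*Mobp* (chr9:120149707-120181484, plus strand, with exons shared with the predicted gene *Gm38642*), another basic protein of compact myelin, had 497 to 947 CPM in Ntg mice with a median of 622. P301S mice had 591 (mouse 43), 710 (36), 787 (65), 837 (63), 1070 (29) and 1332 CPM (77). Mice 29 and 77 were above every Ntg mouse, and 4 Ntg mice were at or above the lowest P301S mouse. *Mobp* had the widest error among the 9 genes, with a log2 fold change of 0.42 ± 0.21 (adjusted p = 0.344 by edgeR; exact permutation p = 0.0973).

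*Cldn11* (chr3:31149920-31164324, plus strand) encodes the claudin that seals the myelin layers with tight junctions, and it had the largest difference of the 9 genes. Ntg mice had 93.7 to 176 CPM with a median of 110, and P301S mice had 124 (mouse 43), 145 (63), 196 (65), 200 (77), 201 (36) and 247 CPM (29). Mice 29, 36, 65 and 77 were above every Ntg mouse, while 43 and 63 lay between Ntg mice 55 and 62 (173 and 176 CPM) and the other 5. *Cldn11* differed on the log2 scale by 0.59 ± 0.19 (adjusted p = 0.125 by edgeR; exact permutation p = 0.0198).

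On the axon-facing and outer surfaces, *Mag* (chr7:30899176-30914873, minus strand) encodes the myelin-associated glycoprotein that touches the axon. Ntg mice had 141 to 286 CPM with a median of 184, and P301S mice had 212 (mouse 43), 239 (63), 289.9 (36), 290.0 (65), 317 (77) and 348 CPM (29). Again mice 29, 36, 65 and 77 exceeded every Ntg mouse, and only Ntg mice 55 and 62 exceeded the lowest P301S mouse. *Mag* differed on the log2 scale by 0.57 ± 0.17, with the lowest adjusted p of the 9 genes (0.102 by edgeR; exact permutation p = 0.0122).

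*Mog* (chr17:37010743-37023398, minus strand) encodes a glycoprotein of the outermost layer that appears late in maturation. Its level was 38.8 to 80.1 CPM in Ntg mice with a median of 46.6, and in P301S mice it was 52.0 (mouse 43), 66.3 (63), 75.3 (65), 79.2 (36), 88.7 (29) and 89.8 CPM (77). Mice 29 and 77 were above every Ntg mouse, and Ntg mice 35, 55 and 62 were above P301S mouse 43. For *Mog* the log2 fold change was 0.44 ± 0.18 (adjusted p = 0.247 by edgeR; exact permutation p = 0.0460).

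The remaining myelin genes encode enzymes. *Cnp* (chr11:100574904-100591729, plus strand), for the phosphodiesterase of the cytoplasmic channels of the sheath, had 248 to 450 CPM in Ntg mice with a median of 305. P301S mice had 336 (mouse 43), 389 (63), 480 (65), 500.3 (77), 502 (36) and 515 CPM (29). Mice 29, 36, 65 and 77 were above every Ntg mouse, and Ntg mice 55 and 62 were above mouse 43. The log2 fold change was 0.50 ± 0.15 (adjusted p = 0.116 by edgeR; exact permutation p = 0.0157). Exons of *Cnp* overlap *Dnajc7* on the opposite strand, and whether the counting used strand is not given in the sources used here.

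*Ugt8a* (chr3:125865271-125938619, minus strand), for the transferase that makes galactosylceramide, had 34.1 to 62.1 CPM in Ntg mice with a median of 53.4. P301S mice had 46.1 (mouse 43), 55.3 (65), 63.2 (36), 63.5 (63), 74.1 (29) and 82.4 CPM (77). Mouse 63 joined 29, 36 and 77 above every Ntg mouse, and 65 fell among the Ntg mice. For *Ugt8a* the log2 fold change was 0.39 ± 0.15 (adjusted p = 0.216 by edgeR; exact permutation p = 0.0443).

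*Olig2* (chr16:91225457-91228677, plus strand) marks the whole lineage, from progenitors to mature cells. Ntg mice had 25.4 to 33.7 CPM with a median of 27.4, and P301S mice had 24.0 (mouse 63), 30.2 (43), 31.1 (77), 34.2 (36), 34.9 (29) and 39.0 CPM (65). Mouse 63 was the lowest of all 13 mice and mouse 65 the highest. For *Olig2* the log2 fold change was 0.16 ± 0.11, with a 95% interval of -0.06 to 0.39 (adjusted p = 0.503 by edgeR; exact permutation p = 0.186).

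*Pdgfra* (chr5:75152292-75198215, plus strand), the progenitor gene, also labels some fibroblast-like cells of vessels and meninges, and its exons overlap 2 predicted genes on the opposite strand. Ntg mice had 44.9 to 56.5 CPM with a median of 47.6, and P301S mice had 38.2 (mouse 63), 44.3 (65), 47.2 (43), 49.0 (36), 51.9 (77) and 53.5 CPM (29). No P301S mouse was above every Ntg mouse, and mice 63 and 65 were below every Ntg mouse. The log2 fold change was -0.05 ± 0.08, with a 95% interval of -0.22 to 0.12 (adjusted p = 0.839 by edgeR; exact permutation p = 0.529). Without P301S mouse 63 it was 0.00.

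Mice kept nearly the same order from one myelin gene to the next. P301S mice 29 and 77 ranked between 1 and 3 of 13 for every one of the 7 myelin genes, and Ntg mice 61 and 71 between 11 and 13. Ntg mouse 55 ranked between 2 and 6 and Ntg mouse 62 between 4 and 8, both above the Ntg mean in 7 of 7 genes. P301S mouse 43 ranked between 8 and 10. After group means were removed, Pearson's r over the 13 mice, given as a description, was 0.72 to 0.98 for the 21 pairs among the 7 myelin genes (median 0.88). *Olig2* correlated with the 7 at 0.10 to 0.47 and *Pdgfra* at -0.13 to 0.09, and *Olig2* with *Pdgfra* at 0.29. These values share library depth and dissection within each mouse.

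**Figure D2:**
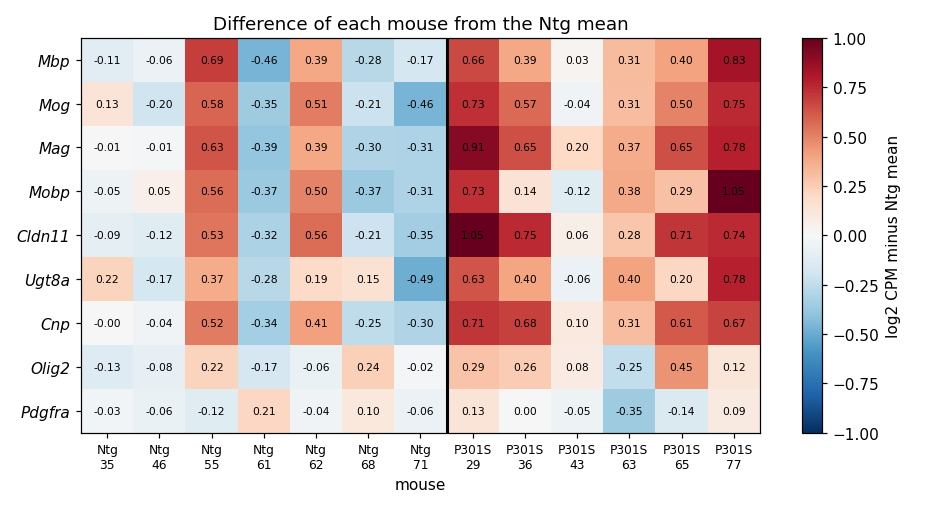
Difference of each mouse (columns) from the Ntg mean in log2 CPM for the 9 genes (rows), red for higher and blue for lower, with the value in each cell. The 7 myelin genes change together within a mouse, as in Ntg mouse 55 and P301S mice 29 and 77, whereas *Olig2* and *Pdgfra* follow their own order, with *Pdgfra* highest in Ntg mouse 61.

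Genes whose order among the 13 mice was most like that of the 7 myelin genes, with group means removed and a mean of at least 5 CPM, were *Prr5l* (Pearson's r 0.98), *Arsg* (0.97), *Pls1* (0.97), *Galnt6*, *Olfml1*, *Mal*, *Myo1d* and *Opalin* (each 0.96). *Mal* and *Opalin* encode myelin membrane proteins. For *Pdgfra* they were *Rgs9* (0.88), *Ntrk2* (0.87), *Gfra1* and *Ankrd63* (0.85 each), *Alcam* (0.83), *Swap70*, *Jcad* (0.82 each) and *Cep41* (0.81). None of these 16 genes was called between genotypes.

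Markers listed for thalamus, a tissue next to the hippocampus, were compared with the myelin genes. The summed level of 5 thalamus markers (*Prkcd*, *Lef1*, *Tnnt1*, *Ramp3* and *Plekhg1*) was 88.1 CPM in Ntg mouse 55, 82.8 in 62, 81.1 in 35 and 70.6 in 46, but 41.7 to 43.9 in the other 3 Ntg mice. P301S mice had 113 (mouse 29), 102 (63), 100.4 (77), 66.7 (65), 51.6 (43) and 48.2 CPM (36). Over the 13 mice, with group means removed, it correlated with the mean of the 7 myelin genes at r = 0.75 and rho = 0.68 (permutation p = 0.00485 and 0.0128, or 0.0485 and 0.0715 adjusted over the 10 marker lists compared). Without the 2 mice farthest from the median r was 0.69, and it was 0.87 within Ntg and 0.61 within P301S mice. With this level as a covariate, a setting chosen after the data were seen, the log2 fold changes of the 7 myelin genes were 0.21 to 0.48 and 0 of 9 genes was called. *Mobp* had the smallest value (0.21), and *Serpina3n* and *B2m*, of the disease-associated list, lost their call (adjusted p = 0.0714 and 0.0601 by edgeR) at log2 fold changes of 1.69 and 1.44, near those without the covariate (1.76 and 1.48). The 5 markers are not specific to thalamus, since they summed to 355 to 483 CPM in the primary microglia.

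The 5 choroid plexus markers summed to 434 to 3872 CPM in Ntg and 97.3 to 5484 CPM in P301S mice, with r = 0.67 (permutation p = 0.0124, adjusted 0.0620). For the other 8 lists r ran from -0.56 (neurons) to 0.46 (disease-associated microglia), with adjusted permutation p of 0.164 or more. Values within Ntg and within P301S mice could differ. They were 0.50 and 0.92 for choroid plexus, -0.57 and 0.75 for astrocytes and -0.38 and -0.80 for neurons. Schwann cell markers, which would mark peripheral nerve, summed to no more than 1.42 CPM in any mouse. The part of tissue composition in the genotype difference was not tested. The thalamus marker covariate cannot measure it, because those markers are not specific to thalamus.

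Within sex the groups separated for some of the genes. Every P301S female was above every Ntg female for *Mbp*, *Mag*, *Cldn11* and *Cnp*, 4 of 9 genes, against 15.4% of all genes. In males this held for *Ugt8a* alone, 1 of 9 genes, against 6.07%, as Ntg mice 55 and 62 are both males. Mean *Ugt8a* was 50.6 ± 7.17 CPM in Ntg and 54.8 ± 8.56 in P301S females (SD, 3 and 3 mice), and 47.6 ± 13.1 and 73.3 ± 9.45 CPM in males (4 and 3 mice). The interaction of sex and genotype was called for 0 of 9 genes and for 0 (0%) of the 17242 genes tested. It gave *Ugt8a* a log2 value of 0.51 ± 0.28 (adjusted p = 0.289 by edgeR), the lowest of the 9 genes. At an unadjusted p under 0.05 it marked 0 of the 9 genes and 23.4% of all genes.

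The outcome of the test for the myelin genes depended on single mice and on the tool. Without P301S mouse 43 the call was reached by *Mag*, *Cldn11* and *Cnp*, with 3.66% of all genes called higher. Without Ntg mouse 55 it was reached by *Mag* (adjusted p = 0.0478 by edgeR), with 1.11% of all genes called higher. DESeq2's Wald test on all 13 mice called *Mag* and *Cldn11*, with 3.23% of all genes called higher. The log2 fold changes of the 7 myelin genes stayed above 0 in each of the 13 fits that left out 1 mouse, between 0.26 (*Mobp* without P301S mouse 77) and 0.69 (*Mag* without Ntg mouse 55).

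Lists of related genes were then read in the same fit. Among 20 further myelin proteins 0 was called, 18 had a log2 fold change above 0 and 11 were higher at an unadjusted p under 0.05, with a median of 0.36 against 0.00 over all genes. *Mal*, for a membrane protein of the sheath, differed by 0.35 ± 0.17. *Trf*, for transferrin, had the largest value of the list, 0.82 ± 0.21 (adjusted p = 0.0636 by edgeR), and *Tppp*, for a tubulin-binding protein, had -0.23 ± 0.08 and was below every Ntg mouse in 4 of 6 P301S mice. Of 7 genes for myelin lipids 0 was called and 7 were above 0, with a median of 0.34. *Aspa*, which releases acetate from N-acetylaspartate for lipid synthesis, differed by 0.46 ± 0.24 (adjusted p = 0.370 by edgeR).

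Of 9 further transcription factors of the lineage 0 was called, 8 were above 0 and the median was 0.28. *Sox10*, required for myelin gene expression, had 46.1 to 76.2 CPM in Ntg and 64.8 to 94.1 CPM in P301S mice. In P301S, 4 mice were above every Ntg mouse, and only Ntg mouse 55 was above the lowest P301S mouse. The log2 fold change was 0.40 ± 0.12 (adjusted p = 0.0957 by edgeR; exact permutation p = 0.00816). *Myrf*, the direct activator of myelin genes, differed by 0.36 ± 0.13 (adjusted p = 0.167 by edgeR), and *Olig1* by 0.11 ± 0.11.

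Of 14 progenitor genes 0 was called, 10 were above 0 and 4 below, and the median was 0.06. *Cspg4*, for the NG2 proteoglycan, differed by -0.09 ± 0.10. For 6 genes of differentiating oligodendrocytes the median was 0.40 and 0 was called. They were not uniform, with *Bcas1* at 0.67 ± 0.23 (adjusted p = 0.158 by edgeR), *Enpp6* at 0.58 ± 0.26 and *Gpr17*, for the receptor of committed precursors, at 0.04 ± 0.15. Without P301S mouse 43 *Enpp6* was called (0.75, adjusted p = 0.0471 by edgeR). Among 13 signals that act on the lineage 0 was called and the median was 0.02. *Pdgfa*, for the ligand of the *Pdgfra* product, differed by 0.02 ± 0.09.

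**Figure D3:**
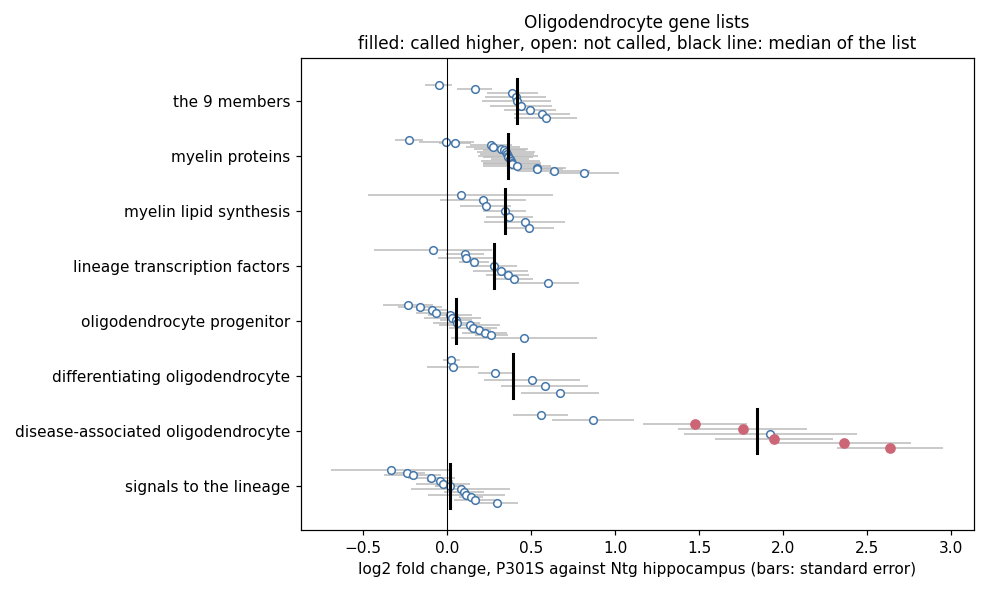
Log2 fold change of P301S against Ntg hippocampi (x axis, bars give the SE) for each gene of 8 lists (y axis), with called genes filled, other genes open and the list median as a black line. The 5 called genes all lie in the disease-associated oligodendrocyte list, and medians are 0.42 for the 9 genes and 0.06 for progenitor genes. All 8 lists were chosen with earlier results of these data known.

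Of 8 genes known to be induced in oligodendrocytes near pathology, 5 were called higher and 0 lower, and the median was 1.84. Over all genes tested 1.32% were called higher and 0.0365% lower. The list was chosen with earlier results of these data known, so its count is not read against these shares. *C4b*, for complement C4, had 34.2 to 65.5 CPM in Ntg mice and 43.3 (mouse 43), 94.9 (63), 228 (77), 299 (65), 332 (36) and 395 CPM (29) in P301S mice. Only mouse 43 remained within the Ntg range. For *C4b* the log2 fold change was 2.36 ± 0.40 (adjusted p = 0.0206 by edgeR). The class I genes *H2-D1* (2.63 ± 0.31, adjusted p = 0.00216 by edgeR) and *H2-K1* (1.95 ± 0.35, 0.0281) and *B2m* (1.48 ± 0.31, 0.0343), for their shared light chain, were also called.

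*Serpina3n*, for a protease inhibitor, was called at 1.76 ± 0.38 (adjusted p = 0.0388 by edgeR), although mouse 43 had 31.8 CPM, below every Ntg mouse (46.2 to 81.9 CPM). *Klk6*, for a protease enriched in oligodendrocytes, had 0.758 to 3.96 CPM in Ntg and 1.26 to 10.97 CPM in P301S mice and was not called (1.92 ± 0.51, adjusted p = 0.0725 by edgeR), nor was *Il33*, for a nuclear cytokine (0.56 ± 0.16, 0.0935). Both genes were called without P301S mouse 43 (*Klk6* 2.13, adjusted p = 0.0178; *Il33* 0.67, 0.0105, by edgeR) and with DESeq2 (0.00477 and 0.0217). *Klk6* was also called without Ntg mouse 55 (0.0469), with sex as a covariate (0.0412) and in females alone (0.0476).

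Calls of *C4b*, *Serpina3n*, *H2-K1* and *B2m* were each lost in most of the 13 fits with 1 mouse left out, while their direction was not. With 1 mouse left out, log2 fold changes were 2.14 to 2.58 for *C4b*, 1.55 to 1.98 for *Serpina3n*, 1.69 to 2.13 for *H2-K1*, 1.20 to 1.66 for *B2m* and 2.32 to 2.81 for *H2-D1*. Adjusted p reached 0.0675, 0.113, 0.0771 and 0.0953 for the first 4 by edgeR, and only *H2-D1* kept the call in all 13 fits (at most 0.0113). With sex as a covariate *Serpina3n* and *B2m* narrowly lost the call (0.0508 and 0.0507). In females alone *H2-D1* was the only one of the 5 called, and in males alone none was, with *H2-D1* at 2.31 (adjusted p = 0.0776 by edgeR).

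The called genes are also made by astrocytes and microglia, and bulk counts do not assign them to a cell type. In the same fit, 1 of 7 microglial (*C1qa*), 5 of 7 disease-associated microglial (*Cst7*, *Itgax*, *Clec7a*, *Trem2* and *Tyrobp*) and 1 of 6 astrocyte markers (*Gfap*) were called higher. Over all genes tested the share was 1.32%, and these lists too were chosen with earlier results of these data known. Summed disease-associated microglial markers had 124 to 158 CPM in Ntg and 112 to 488 in P301S mice, and summed astrocyte markers 3628 to 4411 and 3703 to 7389 CPM. The share of each cell type in the list's difference was not tested. Of neuron, endothelial, fibroblast and pericyte, choroid plexus, Schwann cell, thalamus and T cell markers 0 was called.

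In primary microglia most of the 9 genes were near the detection limit. *Mog* and *Olig2* did not pass the filter on low counts, with no more than 0.969 and 0.539 CPM in any of 18 libraries. Thus 7 of the 9 genes were tested in the main microglial fit. Counts out of 9 below include these untested genes, whereas shares of all genes are of genes tested. *Mobp*, *Cldn11*, *Ugt8a* and *Pdgfra* had at most 3.66 CPM and *Mag* at most 10.5 CPM. Only *Mbp* (42.99 to 75.4 CPM) and *Cnp* (18.6 to 110 CPM) were well measured. The *Mbp* gene also makes golli transcripts, known from immune cells, which counts per gene cannot separate from myelin transcripts. *Mobp*, *Cldn11* and *Ugt8a* had at most 2 reads in any *Cgas*-/- library and passed the filter through *Cgas*+/+ libraries.

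HT-DNA raised *Cnp* in *Cgas*+/+ microglia. Vehicle libraries had 41.7, 35.3 and 36.8 CPM and HT-DNA libraries 94.2, 110 and 109 CPM, without overlap. *Cnp* differed on the log2 scale by 1.46 ± 0.07 (adjusted p = 8.21e-16 by edgeR, called at a log2 fold change beyond 1). *Cldn11* (1.49 ± 0.33, adjusted p = 0.000387), *Ugt8a* (1.59 ± 0.36, 0.000838) and *Pdgfra* (1.26 ± 0.38, 0.00790) were called too, so that 4 of the 9 genes were called higher, against 5.29% of all 13675 genes tested, and 0 lower, against 2.79%. *Cldn11*, *Ugt8a* and *Pdgfra* were highest in the HT-DNA libraries of the genotype, and the number is not read against that share. These genes were also called with no filter on low counts. Their levels rested on few reads, with mean CPM of 1.17, 0.763 and 0.749 with vehicle and 3.25, 2.33 and 1.75 with HT-DNA, and *Pdgfra* lost the call without vehicle replicate 1 (adjusted p = 0.0614 by edgeR) or 2 (0.0584). *Mobp* (0.95 ± 0.40, 0.0519), *Mag* (0.37 ± 0.14, 0.0266) and *Mbp* (0.06 ± 0.07, 0.516) were not called.

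Other genes of the lineage went both ways with HT-DNA in *Cgas*+/+ cells. Among the lists, *Gjb1*, *Evi2a*, *Car2*, *Olig1*, *Vcan*, *Bcas1*, *Enpp6*, *C4b*, *Serpina3n* and *Il33* were called higher, while *Anln* was called lower. Over all genes tested 5.29% were called higher and 2.79% lower. *Il33*, *Enpp6*, *C4b* and *Olig1* had at most 3, 5, 6 and 11 reads in any *Cgas*+/+ vehicle library. They may have passed the filter through HT-DNA libraries, so the number of list genes called is not read against these shares. *Myrf* had 4.43 to 6.42 CPM with vehicle and 2.50 to 3.50 CPM with HT-DNA (-0.86 ± 0.18, adjusted p = 0.000206 by edgeR, short of the minimum fold). Median log2 fold changes were 1.02 for the 10 further myelin proteins tested, -0.09 for 4 lipid genes, -0.50 for 3 transcription factors and -0.09 for 5 progenitor genes. The 6 astrocyte markers summed to 4.67 to 5.89 CPM with vehicle and 10.6 to 13.7 CPM with HT-DNA, and 5 endothelial markers to 105 to 125 and 378 to 388 CPM. Neuron markers (0.753 to 1.40 and 0.808 to 1.25 CPM) and fibroblast and pericyte markers (3.24 to 5.13 and 3.82 to 6.35 CPM) overlapped. Of the lineage transcription factors *Nkx2-2* and *Zfp488* had no counts in any *Cgas*+/+ vehicle library. *Cspg4* had 454 to 557 CPM in all 18 libraries. The part of residual non-microglial cells in these values was not tested.

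Tau fibrils gave 0 called genes of the 9 in *Cgas*+/+ microglia, against 2.89% of all genes called higher and 0.527% lower. *Cnp* was at 56.5 to 66.9 CPM, above the 3 vehicle libraries, with a log2 fold change of 0.74 ± 0.07 (adjusted p = 4.61e-09 by edgeR), short of the minimum of 1. *Mag* (0.39 ± 0.14, adjusted p = 0.0290) and *Mbp* (-0.31 ± 0.07, 0.000876) also passed on adjusted p alone. *Mbp* had 66.6 to 72.5 CPM with vehicle and 60.2, 61.6 and 47.02 CPM with tau, without overlap. Of the lists, *Vcan* was called higher in both genotypes and *Tmem163* lower in *Cgas*+/+ cells. The tau and HT-DNA comparisons share their vehicle libraries.

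**Figure D4:**
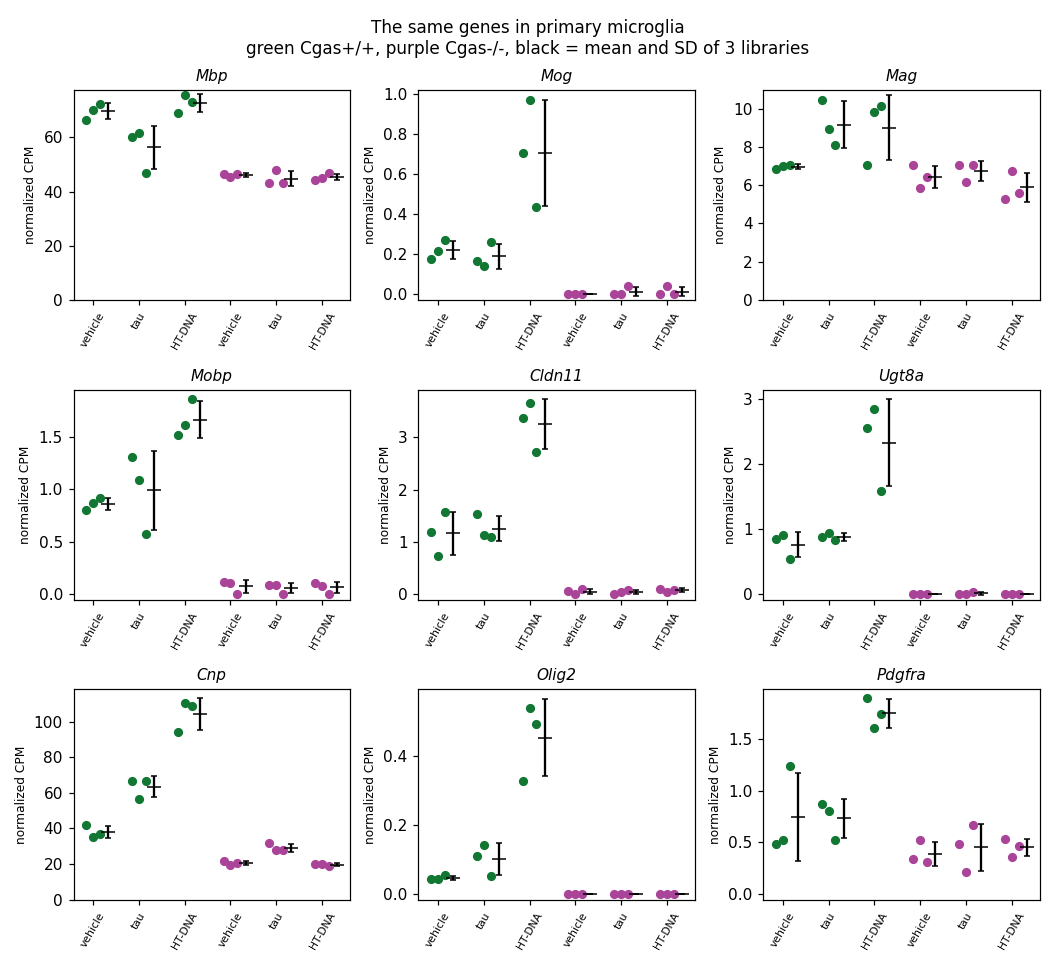
Normalized CPM (y axis, linear, a scale of its own per gene) of the 9 genes in primary microglia, with 3 libraries per group as points (green *Cgas*+/+, purple *Cgas*-/-) and the mean with SD in black. *Cnp* is highest with HT-DNA in *Cgas*+/+ cells and *Mobp*, *Cldn11* and *Ugt8a* are at or near 0 in *Cgas*-/- cells.

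With vehicle, *Mobp*, *Cldn11* and *Ugt8a* were called lower in *Cgas*-/- than in *Cgas*+/+ microglia, where 7.35% of all genes were called lower and 2.63% higher. Because these 3 genes passed the filter through *Cgas*+/+ libraries, their number is not read against that share. No *Cgas*-/- vehicle library had over 2 reads of any of them, so folds are lower bounds against a floor of 3 counts per library. *Mobp* was at least 5.66-fold lower, *Cldn11* at least 7.67-fold lower and *Ugt8a* at least 5.02-fold lower. *Cnp* was 37.9 ± 3.37 CPM in *Cgas*+/+ and 20.5 ± 1.03 CPM in *Cgas*-/- cells (-0.89 ± 0.08, adjusted p = 6.04e-10 by edgeR), and *Mbp* 69.8 ± 2.99 and 46.2 ± 0.630 CPM (-0.59 ± 0.07, 4.25e-08). *Mag* (-0.12 ± 0.14, 0.516) and *Pdgfra* (-0.91 ± 0.46, 0.103) were not called.

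Of the lists, *Mal*, *Tspan2*, *Anln*, *Tppp*, *Car2*, *Enpp2*, *Olig1*, *Bcas1*, *Serpina3n* and *Pdgfc* were called lower and *Rtn4r* higher. *Mal*, *Olig1*, *Bcas1* and *Serpina3n* had at most 1, 3, 5 and 3 reads in any *Cgas*-/- vehicle library. They passed the filter through *Cgas*+/+ libraries, so the number of list genes called lower is not read against the share of all genes. *Mal* had only 4 to 12 reads in *Cgas*+/+ vehicle libraries. In *Cgas*+/+ and *Cgas*-/- vehicle libraries summed astrocyte markers were 4.67 to 5.89 and 1.14 to 2.51 CPM, and summed microglial markers were 4811 to 4901 and 2877 to 3003 CPM. *Cgas* genotype and the purity of the cultures cannot be told apart here.

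In *Cgas*-/- microglia HT-DNA gave 0 called genes of the 9, against 0.0146% of all genes higher and 0.00731% lower, and *Cnp* stayed at 18.6 to 20.2 CPM against 19.4 to 21.5 CPM with vehicle (-0.07 ± 0.09, adjusted p = 0.842 by edgeR). Tau fibrils gave 0 called genes (2.46% of all genes were called higher and 0.278% lower), with *Cnp* at 27.6 to 31.7 CPM (0.50 ± 0.08, adjusted p = 3.92e-05 by edgeR). The difference between genotypes in each response was tested in a comparison added after the data were seen, with no minimum fold. The HT-DNA response of *Cnp* differed, as *Cgas*-/- minus *Cgas*+/+, by -1.53 ± 0.11 on the log2 scale (adjusted p = 2.47e-11 by edgeR), 1 of 9 genes, against 16.6% of all genes lower and 17.4% higher. The tau response of *Cnp* differed by -0.23 ± 0.11 (adjusted p = 0.247 by edgeR), and 0 of 9 genes passed, against 3.61% of all genes higher and 3.31% lower.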

How the data were processed

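Hippocampi of 13 mice and 18 primary microglia libraries were analysed. The deposited tables hold raw read counts per Ensembl gene, which the authors left without normalization. The labels name total RNA and a library kit that reads 3′ transcript ends, whereas the study's methods name another RNA kit for hippocampi. The submitters' processing notes name GRCm38, edgeR and limma, and the aligner, the counting tool and the annotation are not given in the sources used here. Gene positions are from GENCODE (GRCm38) and promoters from RefSeq (GRCm38.p6).

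Samples were grouped from their labels. Counts were filtered with filterByExpr, scaled by TMM and tested with the quasi-likelihood F test of edgeR 4.0.16 (limma 3.58.1, R 4.3.3), with Benjamini-Hochberg adjustment over all genes tested. The standard error was the absolute log2 fold change over the square root of F, and 95% intervals used 14.4 degrees of freedom. Log2 CPM had a prior count of 2. Single values were compared by exact two-sided permutation over 1716 splits of the mice, which can give no p below 0.000583. No 2 libraries of a group agreed within sampling noise. DESeq2 1.42.0, RLE scaling, no filter, other sample sets, thresholds and covariates, a replicate block and leaving out each library were tried. The tests were checked on simulated data.

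The 9 genes and all gene lists were chosen with earlier results of these data known. Named besides the 9 were genes called in a list, 15 genes always given (1 of them is not reported here), and the 8 genes most like the myelin genes and like *Pdgfra*. In microglia the call needed a log2 fold change beyond 1. *Trf*, *Tppp*, *Mapt*, *Ddx3y*, *Cgas* and the thalamus markers are further genes given, of which *Trf* and *Tppp* were chosen after their values were seen.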

Additional observations from a re-analysis of the deposited data

Results flagged for a closer look

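The HT-DNA response of *Cnp* in microglia is listed here because it differed between *Cgas* genotypes by a test of the difference itself. The log2 difference between the responses was -1.53 (adjusted p = 2.47e-11 by edgeR), a comparison added after the data were seen. HT-DNA libraries were higher than vehicle libraries in 3 of 3 *Cgas*+/+ cases, and the *Cgas*-/- groups overlapped. It was -1.60 to -1.47 with any 1 of 12 libraries left out. No single mouse stood apart for any of the 9 genes in 18 groups examined with Dixon's criterion, where chance marks about 1 in 20.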

How the results depend on the processing

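Across the alternatives, the 7 myelin genes kept a log2 fold change above 0 in hippocampi. The number of the 9 genes called there was 0 with RLE scaling, no filter, sex or thalamus markers as a covariate, no minimum fold, females only or males only, 2 with DESeq2, and 0 to 3 with 1 mouse left out. All genes called higher were 217 in the main fit, 531 with DESeq2, 307 with no filter, 152 with sex as a covariate, 69 with thalamus markers as a covariate, 269 in females, 1 in males and 14 to 608 with 1 mouse left out. Values near 0 changed sign. *Pdgfra* was 0.00428 without P301S mouse 63, within a leave-one-out range of -0.0876 to 0.00428. *Olig1* was -0.161 in males. *Gpr17* was -0.00777 in females and -0.0408 to 0.133 with 1 mouse left out, and *Pdgfa* was -0.123 in males and -0.0418 to 0.0848. With no minimum fold, microglial calls among the 9 genes went from 0 to 3 for tau in *Cgas*+/+ (28% of all genes), from 0 to 1 for tau in *Cgas*-/- (16.7%) and from 3 to 5 for *Cgas*-/- against *Cgas*+/+ (52%). The genotype difference in the tau response gave 1 gene (*Mbp*) with no filter (3.7% of all genes) and 0 to 1 with a library left out (4.19% to 8.02%), and that in the HT-DNA response gave 2 (*Mag* and *Cnp*) with DESeq2, RLE scaling or only the compared groups (33.1% to 34.4%) and 1 to 2 with a library left out (30.3% to 32.1%). The cause was not tested. HT-DNA in *Cgas*+/+ called 3 to 5 genes with a library left out (7.29% to 8.4% of all genes), with *Mog* called in some of these fits. With no filter it called 5, *Olig2* added (4.07%). For *Cgas*-/- against *Cgas*+/+ with vehicle, 4 genes were called with any 1 library left out (9.2% to 9.71%) and with no filter (5.13%), *Mog* added.

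Same-numbered microglial libraries correlated at -0.0850 to 0.0823 after group means were removed. Whether they share a culture is not given in the sources used here. With the replicate block the calls among the 9 genes numbered 4 for HT-DNA in *Cgas*+/+ and were unchanged in number in the other 6 microglial comparisons. Depth limits the microglial values of *Mog*, *Olig2*, *Mobp*, *Cldn11*, *Ugt8a* and *Pdgfra*.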
